A study of Mus musculus with 6 samples.

Results

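The genes described here are 36 genes of antioxidant defence and metal binding, taken as a fixed list of mouse symbols from the 22322 genes in the deposited table of arcuate nucleus (ARC) RNA-seq. They comprise 5 genes of the Nrf2 axis, 9 of glutathione metabolism, 4 superoxide dismutase and catalase genes, 7 peroxiredoxin genes counting the repair enzyme sulfiredoxin, 5 thioredoxin genes, 3 metallothionein genes, 2 subunits of the phagocyte NADPH oxidase and 1 uncoupling protein gene. All 36 symbols were found, and 35 passed the filter on low counts. *Cybb*, the catalytic NADPH oxidase subunit, did not.

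Superoxide dismutases turn superoxide into hydrogen peroxide, which catalase, the glutathione peroxidases and the peroxiredoxins then remove. Glutathione and thioredoxin are electron donors for the peroxidases and peroxiredoxins, while catalase needs neither. Many of these enzymes are switched on by the transcription factor Nrf2, which Keap1 holds back until it is oxidized. Metallothioneins are small proteins rich in cysteine that bind zinc and copper. Their *Mt1* and *Mt2* genes are induced by metals, glucocorticoids and inflammatory signals and are strongly expressed in astrocytes, whereas *Mt3* is a form found mainly in the brain.

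The samples came from male mice that were kept for 16 weeks, from 4 weeks of age, on normal chow with 16.5% fat (NCD) or on a diet with 60% fat (HFD). ARC tissue was cut by laser capture microdissection (LCM) from frozen brain sections 20 µm thick, with 3 samples per diet, called NCD1, NCD2 and NCD3 and likewise for HFD. The titles give the diet only by a letter, and in every gene compared (17449 for NCD and 17389 for HFD) the group mean in the deposited table equalled the mean of the 3 samples so assigned within 0.006 FPKM. The study's methods name C57BL/6J as its wild type strain, and Kiss1 neurons, around which the area was cut, were made visible in Kiss1-Cre mice crossed to an R26R-EYFP reporter. The sources used here do not say from which of these the sequenced samples came or how many mice went into each, so the p-values measure only the spread between these samples, which may be technical.

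Total counts of NCD1 to NCD3 were 15925648, 9937632 and 6882449, and those of HFD1 to HFD3 were 8024664, 10479778 and 5171381. Normalized values are in CPM, that is, counts divided by library size. Before normalization, 3 counts, taken as the smallest amount told from none, came to 0.188 CPM in the deepest library (NCD1) and to 0.58 CPM in the shallowest (HFD3). All 15 marker genes of ARC neurons that were examined were detected, with *Cartpt* as the most abundant at a mean of 749 FPKM (fragments scaled to transcript length and mapped reads). Each sample held all the cell types of the cut area, and a change in the number of cells of a type cannot be told apart from a change in RNA per cell.

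The largest log2 fold changes among the 35 genes tested were those of *Mt2* and *Mt1*, while *Mt3* ranked lower, and the coding sequences of the 3 metallothionein genes show how far their reads can be told apart. They lie side by side on the forward strand of chromosome 8 (GRCm38), *Mt3* at chr8:94152607-94154146, *Mt2* at chr8:94172664-94173568 and *Mt1* at chr8:94179082-94180327, each with its coding sequence split over 3 exons. The sequences below run from start to stop codon in the GENCODE M21 transcripts, with the cysteine codons in capitals.
Mt1: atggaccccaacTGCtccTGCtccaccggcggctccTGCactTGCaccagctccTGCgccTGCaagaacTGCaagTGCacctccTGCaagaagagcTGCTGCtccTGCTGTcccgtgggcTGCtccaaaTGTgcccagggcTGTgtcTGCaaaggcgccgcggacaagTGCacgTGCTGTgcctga
Mt2: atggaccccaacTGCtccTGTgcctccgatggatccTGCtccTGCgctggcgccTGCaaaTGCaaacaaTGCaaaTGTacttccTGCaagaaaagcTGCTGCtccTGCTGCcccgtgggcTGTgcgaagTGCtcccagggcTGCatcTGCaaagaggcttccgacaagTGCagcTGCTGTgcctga
Mt3: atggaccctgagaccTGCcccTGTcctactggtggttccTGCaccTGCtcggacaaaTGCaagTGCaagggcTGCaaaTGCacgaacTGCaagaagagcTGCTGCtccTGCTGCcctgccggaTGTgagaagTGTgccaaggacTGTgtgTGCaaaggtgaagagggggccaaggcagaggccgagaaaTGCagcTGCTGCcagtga

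*Mt1* and *Mt2* each code for 61 amino acids, and *Mt3* for 68. All 3 have 20 cysteine codons, which is 32.8% of the residues in *Mt1* and *Mt2* and 29.4% in *Mt3*. The coding sequences of *Mt1* and *Mt2* were identical at 148 of 186 bases (79.6%), but the longest run shared by their transcripts was 20 bases, and it was 27 bases between *Mt1* and *Mt3*. No stretch of 50 bases of the 3 transcripts occurred on the same strand in a transcript of another gene, and the opposite strand was not searched. The exons of *Mt2* share 432 bases (73.5%) with *Gm45774*, a gene on the opposite strand that is not in the table, and whether the counting used strand is not given in the sources used here.

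*Mt2* was the one member that passed p under 0.05 with a change of more than 1.5-fold, and *Mt1* stood next to it. *Mt2* was at 50.3, 115 and 111 CPM in NCD1 to NCD3 and at 145, 126 and 201 CPM in HFD1 to HFD3. NCD1 was by far the lowest sample and HFD3 the highest, and the diets did not overlap. *Mt2* averaged 92.3 ± 36.4 CPM on NCD and 157 ± 39.3 CPM on HFD (SD, n = 3). Its log2 fold change, HFD against NCD, was 0.77 (standard error 0.30, 95% interval 0.11 to 1.42; edgeR, adjusted p = 0.999). Over all 14188 genes tested, 1.9% passed the same threshold, 1.01% with the higher level in HFD and 0.888% with the lower. None of the 35 members had an adjusted p under 0.05 in edgeR, DESeq2 or limma, where in edgeR 0.0564% of all genes did (0.00705% higher in HFD). At p under 0.05 without a fold threshold, *Mt2* was again the one member in edgeR, against 2.3% of all genes (1.21% higher and 1.09% lower in HFD).

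*Mt1* was at 240, 460 and 460 CPM in NCD1 to NCD3 and at 546, 508 and 643 CPM in HFD1 to HFD3. The order of the extremes was that of *Mt2*, with NCD1 lowest and HFD3 highest, and again the diets did not overlap. *Mt1* averaged 387 ± 127 CPM on NCD and 566 ± 69.6 CPM on HFD (SD, n = 3). The log2 fold change was 0.55 (standard error 0.27, 95% interval -0.032 to 1.13) and did not pass p under 0.05. *Mt3* was at 250, 515 and 552 CPM in NCD1 to NCD3 and at 541, 437 and 558 CPM in HFD1 to HFD3. Apart from NCD1 its values were mixed between the diets, and its log2 difference was 0.22 (standard error 0.29, 95% interval -0.40 to 0.84).

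**Figure D1:**
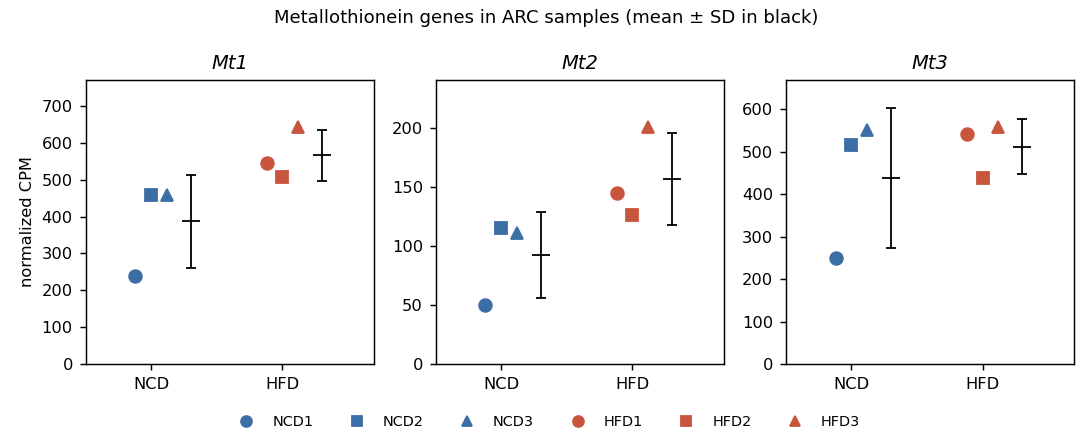
Normalized CPM (vertical axes, each starting at 0) of Mt1, Mt2 and Mt3 in the 3 NCD samples (blue) and the 3 HFD samples (red), with the mean ± SD of each diet in black and a marker shape for each replicate number. NCD1 is the lowest sample of all 3 genes, and the diets do not overlap for Mt1 and Mt2 but do for Mt3.

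The differences of *Mt1* and *Mt2* were smaller without NCD1, the deepest library, or HFD3, the shallowest. Without NCD1 the log2 fold change was 0.46 for *Mt2*, 0.29 for *Mt1* and -0.07 for *Mt3*, and without HFD3 it was 0.55 for *Mt2* and 0.44 for *Mt1*. In both fits *Mt2* no longer passed p under 0.05. With both samples left out, a choice made after the data had been seen, it was 0.24 for *Mt2*, 0.19 for *Mt1* and -0.13 for *Mt3*, and again none of the 3 passed. A covariate for the log2 total count brought *Mt2* to 0.44, which passed p under 0.05 but is below 1.5-fold. Other choices gave larger values: without NCD2 *Mt2* was at 0.96, and without NCD3 *Mt1* was at 0.70 and passed both thresholds. *Mt1* also passed p under 0.05 with DESeq2 (0.54) and with library totals alone (0.57), but not 1.5-fold. The direction for *Mt1* and *Mt2* was the same in all 20 other settings tried.

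**Figure D2:**
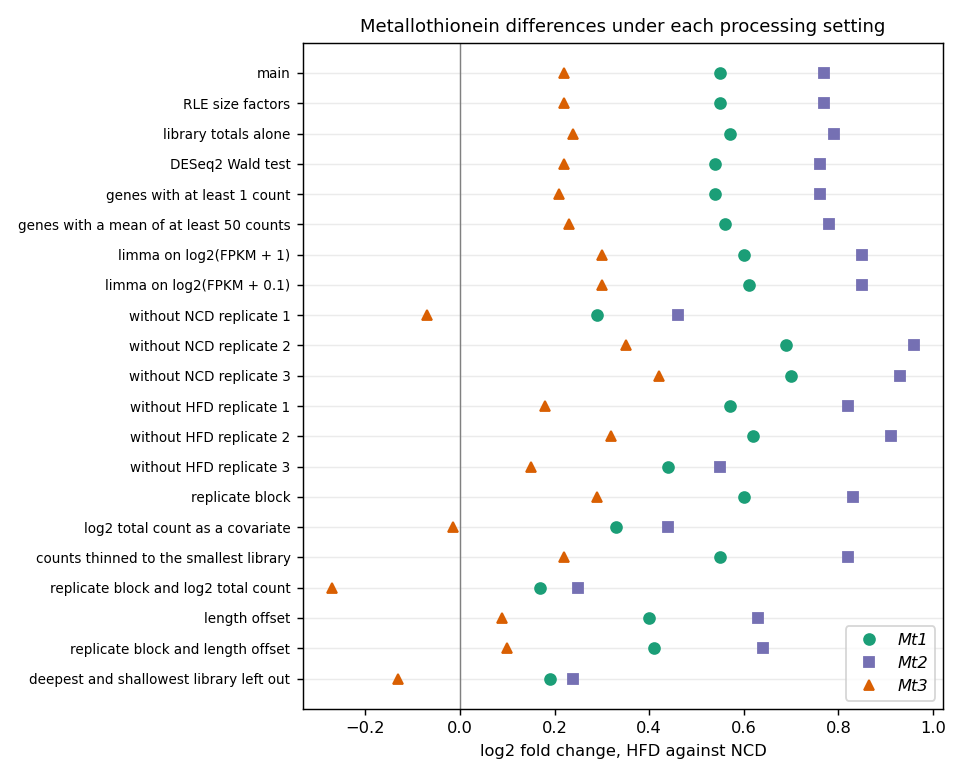
Log2 fold change (horizontal axis, HFD against NCD) of Mt1, Mt2 and Mt3 under the main setting and each of the 20 others, 1 row per setting. Mt1 and Mt2 lie to the right of 0 in every row, from 0.17 to 0.70 for Mt1 and from 0.24 to 0.96 for Mt2, and Mt3 falls on both sides of 0.

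Ratios within a library do not depend on how the libraries were scaled. The count of *Mt2* for each count of *Mt1* was 0.209, 0.251 and 0.242 in NCD1 to NCD3 and 0.265, 0.247 and 0.313 in HFD1 to HFD3. HFD3 had the highest ratio and NCD1 the lowest, but HFD2 lay below NCD2. The ratio of *Mt3* to *Mt1* was 1.04, 1.12 and 1.2 in NCD1 to NCD3 and 0.99, 0.86 and 0.868 in HFD1 to HFD3. Here the diets did not overlap, though NCD1 and HFD1 lay close. Within every HFD sample *Mt3* was the smaller of the pair in counts and within every NCD sample the larger. How often the ratios of other pairs of genes are without overlap was not examined. These ratios were described without a test.

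Per length of transcript, *Mt3*, *Mt1* and *Sod1* were the most abundant members. The mean over the 6 samples was 885 FPKM for *Mt3* and 864 FPKM for *Mt1*, and 820 FPKM for *Sod1*, which encodes the cytosolic copper-zinc superoxide dismutase. The ranges of these 3 genes over the samples overlapped (488 to 1072, 455 to 1199 and 523 to 1059 FPKM), so their order is not set apart from the spread. Next came *Gpx4* at 518, *Gstm1* at 418, *Gpx3* at 404, *Prdx5* at 327, *Prdx1* at 313, *Prdx6* at 268, *Mt2* at 246 and *Prdx2* at 244 FPKM, each overlapping its neighbour. At the lower end were *Nqo1* at 8.49, *Sod3* at 2.5, *Hmox1* at 1.97 and *Cybb* at 0.137 FPKM, and the ranges of *Nqo1* and *Sod3* did not overlap. *Cybb* had 14, 8 and 1 counts in NCD1 to NCD3 and 6, 8 and 3 in HFD1 to HFD3, too few to compare the diets.

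**Figure D3:**
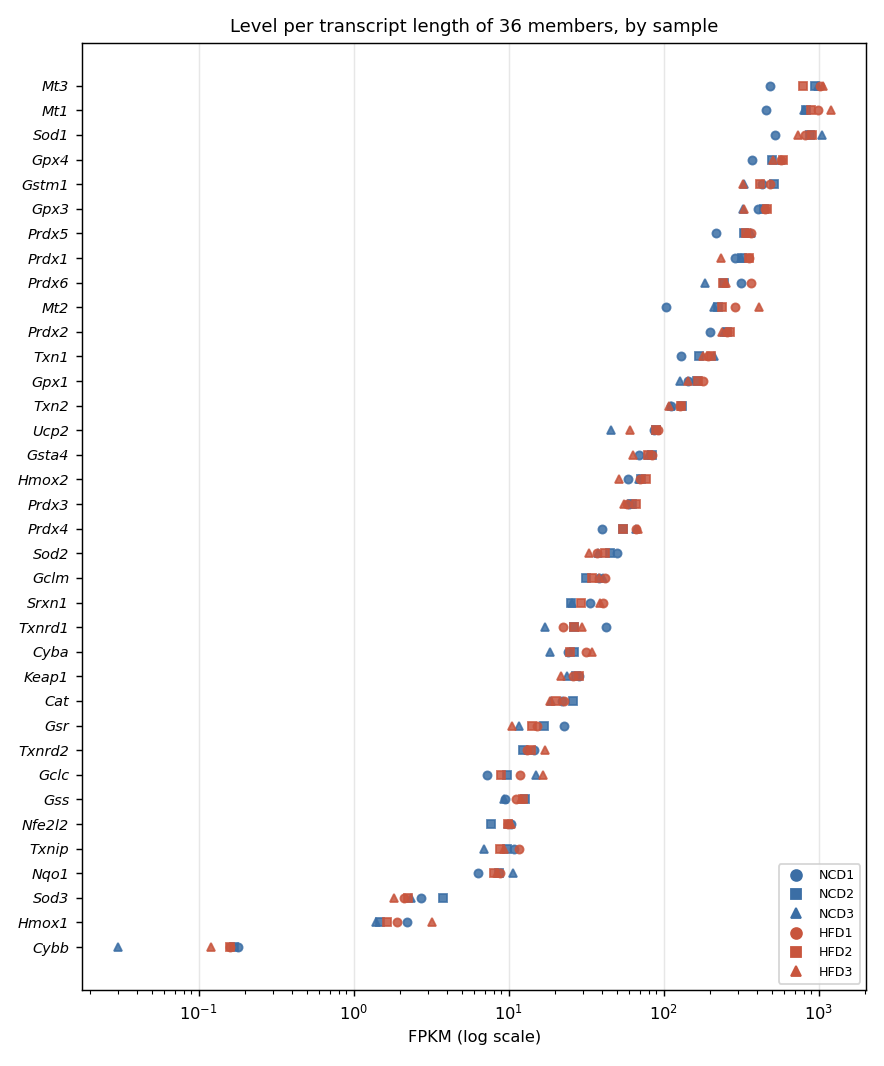
FPKM (horizontal axis, logarithmic) of all 36 genes in each of the 6 samples (NCD blue, HFD red, marker shape by replicate number), ordered by their mean. Levels run from 0.03 FPKM for Cybb in NCD3 to 1199 FPKM for Mt1 in HFD3, and the samples of both diets are intermixed for most genes.

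Taken over the whole list, the antioxidant genes lay close to no difference. Of the 35 genes tested, 22 had a log2 fold change above 0 and 13 below, against 50.5% above 0 among all genes, and the median was 0.11 against 0.0032 for all genes. When 1 sample was left out, the median of the members ran from -0.017 (without NCD1) to 0.14 (without NCD2 or HFD3). The fold changes ran from -0.51 (*Sod3*) to 0.77 (*Mt2*). The diets were without overlap in *Mt1*, *Mt2* and *Sod3* alone, and over all genes this was so for 6.47% (3.24% with HFD above NCD and 3.24% with HFD below). On the log2 scale, the members deviated from the mean of all samples by a median of -0.16, 0.075 and -0.011 in NCD1 to NCD3 and of 0.092, 0.091 and -0.071 in HFD1 to HFD3. Samples of both diets lay above and below 0, and the spread within a diet was 0.11 (SD).

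**Figure D4:**
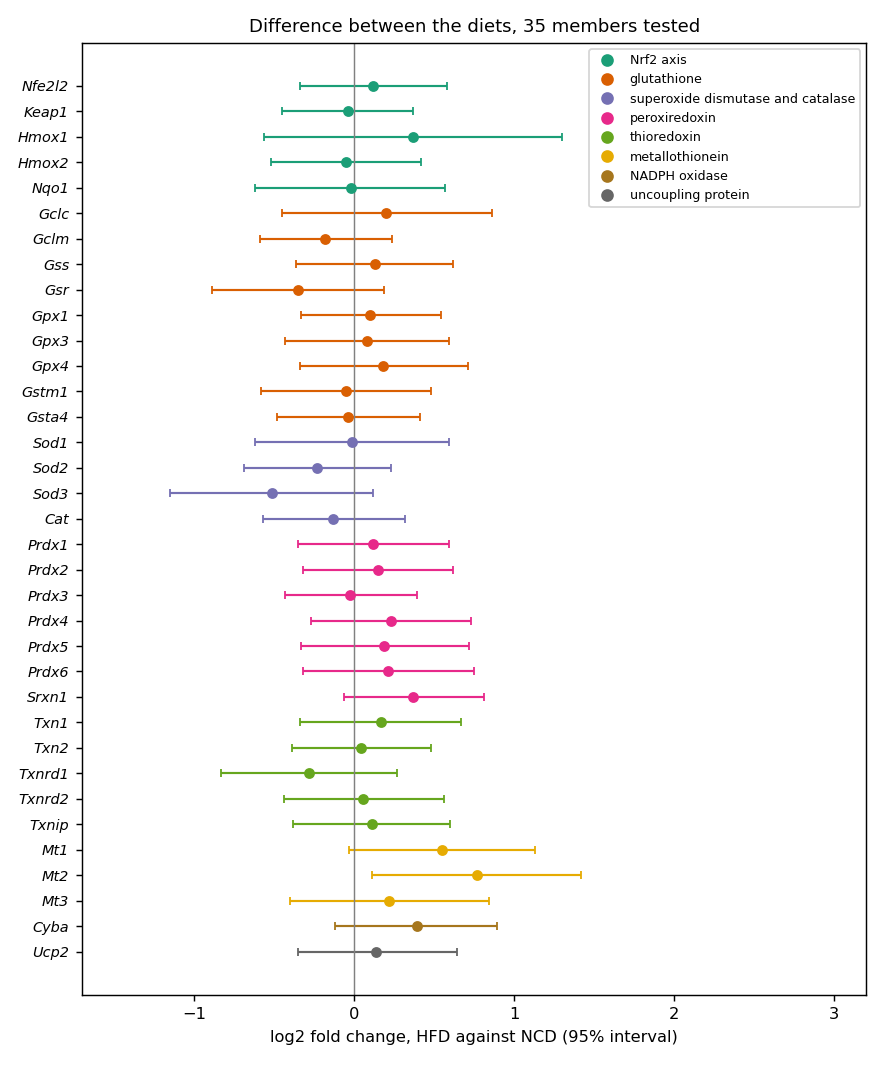
Log2 fold change (horizontal axis, HFD against NCD) with its 95% interval for the 35 members tested, coloured by role. The interval of Mt2 alone lies wholly to one side of 0, and those of Mt1 (-0.032 to 1.13) and Srxn1 (-0.061 to 0.81) reach just below it.

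In the Nrf2 axis, neither the factor nor its inhibitor differed beyond the spread. *Nfe2l2*, which encodes Nrf2, had a log2 fold change of 0.12 with a 95% interval of -0.34 to 0.58. *Keap1*, the inhibitor, was at 77.1, 83.5 and 79.1 CPM in NCD1 to NCD3 and at 79.4, 86.6 and 67.2 CPM in HFD1 to HFD3. The 95% interval of its log2 fold change was -0.45 to 0.37, with HFD3 lowest and HFD2 highest. *Hmox2*, the constitutive heme oxygenase, was at 81.0, 102 and 107 CPM in NCD1 to NCD3 and at 97.8, 110 and 71.3 CPM in HFD1 to HFD3, and the diets overlapped. Its inducible relative *Hmox1* had the widest interval of the members (-0.56 to 1.3), with counts from 15 in NCD3 to 55 in NCD1. *Nqo1*, a quinone reductase and classical Nrf2 target, had a log2 fold change of -0.021 (95% interval -0.62 to 0.57).

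Of the 9 glutathione genes, 5 lay above 0 and 4 below, with a median of 0.082, and none had p under 0.05 in edgeR. *Gpx4*, which reduces lipid peroxides, was at 328, 476 and 563 CPM in NCD1 to NCD3 and at 529, 554 and 469 CPM in HFD1 to HFD3. NCD1 was again the lowest sample, and the other 5 were mixed. *Gstm1*, a glutathione transferase abundant in astrocytes, was at 527, 671 and 441 CPM in NCD1 to NCD3 and at 623, 552 and 408 CPM in HFD1 to HFD3, a log2 fold change of -0.049 (95% interval -0.58 to 0.48). Both genes share sequence with other loci: 61.7% of the 50-base stretches of the *Gpx4* transcripts occur in *Gpx4-ps2* and a further locus, and 23.1% of those of *Gstm1* in its relatives, *Gstm3* among them, so their counts are uncertain. *Gsr*, the reductase that restores glutathione, was at 58.1, 45.8 and 32.5 CPM in NCD1 to NCD3 and at 40.5, 38.8 and 27.7 CPM in HFD1 to HFD3. NCD1 was highest and HFD3 lowest, the diets overlapped, and the log2 fold change was -0.35 (standard error 0.25, 95% interval -0.89 to 0.19). For *Gsr* it was -0.14 without NCD1, -0.20 without HFD3 and -0.061 with a covariate for the total count, and without NCD3 it was -0.53 and passed p under 0.05. The enzymes of glutathione synthesis gave 0.20 for *Gclc*, -0.18 for *Gclm* and 0.13 for *Gss*, none beyond 1 standard error.

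All 4 superoxide dismutase and catalase genes had a log2 fold change below 0, with a median of -0.18. *Sod3*, the extracellular dismutase, was at 9.75, 14.4 and 9.03 CPM in NCD1 to NCD3 and at 7.83, 8.67 and 6.59 CPM in HFD1 to HFD3. Every HFD sample lay below every NCD sample, though NCD3 and HFD2 were close. *Sod3* averaged 11.0 ± 2.89 CPM on NCD and 7.7 ± 1.05 CPM on HFD (SD, n = 3). The log2 fold change was -0.51 (standard error 0.29, 95% interval -1.15 to 0.12) and did not pass p under 0.05. Without NCD2, its highest sample, it was -0.28, and with the counts thinned to the smallest library it was -0.72 and passed p under 0.05. *Sod1* was at 321, 570 and 703 CPM in NCD1 to NCD3 and at 521, 599 and 462 CPM in HFD1 to HFD3. Its NCD samples held both the lowest and the highest value, and the log2 fold change was -0.011 (95% interval -0.62 to 0.59). *Sod2*, the manganese enzyme of mitochondria, was at 272, 253 and 223 CPM in NCD1 to NCD3 and at 211, 248 and 178 CPM in HFD1 to HFD3, and the diets overlapped through HFD2. *Cat*, which encodes catalase, was at -0.13 (standard error 0.20) on the same scale.

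Among the 7 peroxiredoxin genes, 6 lay above 0, with a median of 0.19, and none had p under 0.05 in edgeR. *Srxn1*, which encodes the sulfiredoxin that repairs over-oxidized peroxiredoxins, was at 89.8, 71.5 and 74.2 CPM in NCD1 to NCD3 and at 114, 85.6 and 106 CPM in HFD1 to HFD3. Only NCD1 and HFD2 were out of order between the diets. *Srxn1* averaged 78.5 ± 9.91 CPM on NCD and 102 ± 14.5 CPM on HFD (SD, n = 3), and the log2 fold change was 0.37 (standard error 0.20, 95% interval -0.061 to 0.81). It did not pass p under 0.05 in this fit but did without NCD1 (0.47), with the total count as a covariate (0.39) and with the length offset described further on (0.44). *Prdx1*, a cytosolic peroxiredoxin, was at 340, 397 and 430 CPM in NCD1 to NCD3 and at 446, 466 and 351 CPM in HFD1 to HFD3. *Prdx5* was at 210, 336 and 368 CPM in NCD1 to NCD3 and at 342, 382 and 320 CPM in HFD1 to HFD3. In both, NCD1 was the lowest sample, HFD2 the highest, and HFD3 lay among the NCD values. *Prdx6*, a peroxiredoxin abundant in astrocytes, was at 440, 373 and 284 CPM in NCD1 to NCD3 and at 534, 387 and 350 CPM in HFD1 to HFD3, and the diets overlapped. The log2 fold changes of *Prdx1* to *Prdx6* ran from -0.024 (*Prdx3*) to 0.23 (*Prdx4*), each within 1 standard error or, for *Prdx4*, at 1 standard error of 0.

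*Prdx5* shares 409 exon bases (19.1%) with *Trmt112* and *Hmox2* shares 892 (40.2%) with *Cdip1*, both on the opposite strand, so part of their counts cannot be told apart without strand. *Prdx2* shares 173 exon bases (5.67%) with *Junb*, an immediate early gene that fell in HFD by 1.74 on the log2 scale (edgeR, adjusted p = 0.0136). *Prdx2* itself averaged 306 ± 51.3 CPM on NCD and 339 ± 31.9 CPM on HFD (SD, n = 3).

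Of the 5 thioredoxin genes, 4 lay above 0, with a median of 0.058. *Txn1*, the cytosolic thioredoxin, was at 131, 181 and 230 CPM in NCD1 to NCD3 and at 203, 220 and 184 CPM in HFD1 to HFD3. All HFD values fell within the range of the NCD values. *Txn2*, the mitochondrial form, was at 138, 171 and 149 CPM in NCD1 to NCD3 and at 163, 173 and 135 CPM in HFD1 to HFD3, with the diets mixed. *Txnrd1*, the cytosolic thioredoxin reductase, was at 123, 83.8 and 59.7 CPM in NCD1 to NCD3 and at 72.8, 81.9 and 64.7 CPM in HFD1 to HFD3. It was the reverse of the metallothioneins in that NCD1 was its highest sample, and its log2 fold change was -0.28 (standard error 0.25, 95% interval -0.83 to 0.27). For *Txnrd1* it was 0.017 without NCD1, 0.05 with a covariate for the total count and -0.038 on log2(FPKM + 1). *Txnip*, the thioredoxin inhibitor that responds to glucose, averaged 25.8 ± 4.78 CPM on NCD and 27.9 ± 3.84 CPM on HFD (SD, n = 3).

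*Cyba*, the membrane partner of *Cybb*, was at 17.2, 19.7 and 14.1 CPM in NCD1 to NCD3 and at 23.4, 19.1 and 24.6 CPM in HFD1 to HFD3. HFD2 lay below NCD2, and the log2 fold change was 0.39 (standard error 0.23, 95% interval -0.12 to 0.89). *Ucp2*, an uncoupling protein of the inner mitochondrial membrane, was at 127, 148 and 91.8 CPM in NCD1 to NCD3 and at 155, 138 and 112 CPM in HFD1 to HFD3. NCD3 was lowest and HFD1 highest, and the log2 fold change was 0.14 (95% interval -0.35 to 0.64).

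In each role, the end of the 95% intervals farthest from 0 gives the largest change that any of its genes' intervals still included. It was 1.42 on the log2 scale for the metallothioneins (*Mt2*), 1.30 for the Nrf2 axis (*Hmox1*), 1.15 for the superoxide dismutase and catalase genes (*Sod3*), 0.89 for the glutathione genes (*Gsr*), 0.89 for *Cyba*, 0.83 for the thioredoxins (*Txnrd1*), 0.81 for the peroxiredoxins (*Srxn1*) and 0.64 for *Ucp2*. Several genes had tighter bounds, such as *Prdx3* at -0.43 to 0.39 and *Gsta4* at -0.48 to 0.41.

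The samples differed in a way that follows transcript length, and short transcripts are frequent among the members. The genes tested for which a length could be derived were put into 10 classes of transcript length with equal numbers. In the shortest class (204 to 1149 bases, 1409 genes), the median log2 deviation was -0.47, 0.015 and 0.19 in NCD1 to NCD3 and 0.11, 0.09 and 0.12 in HFD1 to HFD3. NCD1 stood apart in this class, and the median log2 fold change of its genes was 0.17, against -0.071 in class 8. The shortest class held 11 of the 35 members tested, *Mt1*, *Mt2*, *Mt3*, *Sod1*, *Gpx1*, *Gpx4*, *Gsta4*, *Prdx4*, *Prdx5*, *Txn1* and *Cyba*, and the next class 10. NCD1 was the lowest sample in 14 of the 35 members (40%) and in 25.1% of all genes, and HFD3 in 11 (31.4%) and in 24.9%. An offset then took the median deviation of each length class from each sample. With it the log2 fold change of *Mt2* was 0.63, that of *Mt1* 0.40, that of *Cyba* 0.15, and the median of the members 0.025. *Mt1* and *Mt2* both passed p under 0.05 in that fit, *Mt1* without reaching 1.5-fold. The offset leaves in any relation to length within a class. *Mt1*, *Mt2* and *Mt3* (550, 510 and 535 bases) are shorter than the median of their class, 871 bases.

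**Figure D5:**
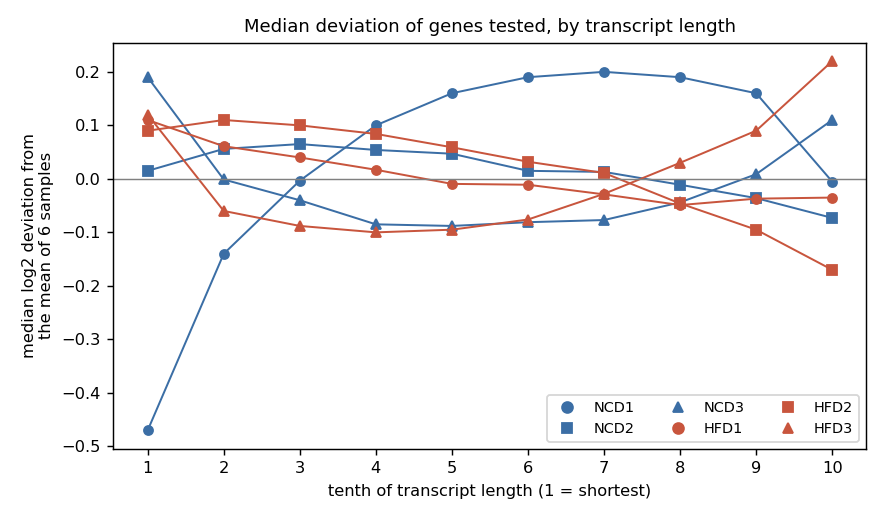
Median log2 deviation from the mean of the 6 samples (vertical axis) over genes tested, for 10 classes of transcript length from the shortest to the longest (horizontal axis), 1 line per sample (NCD blue, HFD red). NCD1 falls to -0.47 in the shortest class, where the other 5 samples lie between 0.015 and 0.19.

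Promoter windows of 300 bases (250 before to 50 after the annotated start) were available from RefSeq (GRCm38.p6) for 30 of the members. The core of the metal response element was searched as TGCACNC and TGCGCNC and the core of the antioxidant response element as TGACNNNGC, both on either strand. The *Mt1* window held 3 metal response element cores, the *Mt2* window 4 and the *Mt3* window 1, where 25.7% of 32851 windows held at least 1 and 1.97% at least 3. Among the other members *Gclm* also held 3, and 9 of the 30 members (30%) held at least 1, against 28.2% of 27025 genes. At least 1 antioxidant response element core was found in 8 of the 30 members (26.7%), which were *Gclm*, *Mt2*, *Nfe2l2*, *Prdx1*, *Sod1*, *Srxn1*, *Txnrd1* and *Ucp2*, against 14% of all genes. A match to these letters is a description of the window and not evidence of binding, and the starts annotated for the metallothioneins lie upstream of a TATAAA in their transcripts (first base 129 in *Mt1*, 90 in *Mt2* and 107 in *Mt3*), so the windows may not be centred on the site of initiation.

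Related pathway genes outside the list gave few calls. Of 39 further glutathione genes, 35 were tested and none had p under 0.05 in edgeR, and the same held for 22 redox repair genes, for the 5 of 12 further NADPH oxidase genes that were tested, and for 6 uncoupling and carrier genes. Over all genes 2.3% had p under 0.05. The smallest p among the glutathione genes belonged to *Oplah*, an enzyme that recycles the glutathione precursor oxoproline (log2 fold change 0.40, 95% interval -0.09 to 0.89), and among the redox repair genes to *Nxn*, which encodes nucleoredoxin (0.79, 95% interval -0.024 to 1.60). *Rac2*, a switch protein of the NADPH oxidase, was at -0.54 (95% interval -1.51 to 0.43), and *Ucp3*, an uncoupling protein of muscle, at -0.37 (95% interval -1.52 to 0.79).

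Of 22 further Nrf2 target and NADPH genes, 1 was higher and 1 lower at p under 0.05 in edgeR. *Osgin1*, a growth inhibitor induced by oxidative stress, had 11, 3 and 0 counts in NCD1 to NCD3 and 16, 16 and 16 in HFD1 to HFD3. All HFD samples lay above all NCD samples, with a log2 fold change of 2.44 (edgeR, adjusted p = 0.999), but such low counts leave a 95% interval of 0.89 to 3.99. *Maff*, a small Maf protein that pairs with Nrf2, was at 1.57, 2.54 and 3.76 CPM in NCD1 to NCD3 and at 0.621, 0.69 and 1.69 CPM in HFD1 to HFD3, a log2 fold change of -1.42 (edgeR, adjusted p = 0.999). HFD3 lay just above NCD1, so the diets overlapped.

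Metallothioneins store zinc, and among 27 metal handling genes, 1 zinc transporter was higher and 1 lower at p under 0.05, where 1.21% and 1.09% of all genes were. The median log2 fold change of the list was -0.13. *Slc39a8*, which imports zinc and manganese across the plasma membrane, was at 9.27, 8.65 and 7.82 CPM in NCD1 to NCD3 and at 4.23, 4.73 and 3.57 CPM in HFD1 to HFD3. The diets were well apart, and the log2 fold change was -1.03 (standard error 0.31; edgeR, adjusted p = 0.999). *Slc30a3*, which loads zinc into synaptic vesicles, was at 0.301, 0.509 and 1.2 CPM in NCD1 to NCD3 and at 2.11, 2.37 and 6.96 CPM in HFD1 to HFD3, a log2 fold change of 2.59 (edgeR, adjusted p = 0.999). Its counts were 5, 5 and 8 in NCD and 17, 24 and 37 in HFD, without overlap.

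Genes induced by glucocorticoids, to which *Mt1* and *Mt2* also belong, were examined as a list of 18. At p under 0.05 in edgeR, 7 were higher and 4 lower in HFD, where 1.21% of all genes were higher and 1.09% lower, and the median log2 fold change was 0.36. *Zbtb16*, a transcription factor, averaged 5.92 ± 0.304 CPM on NCD and 15.8 ± 2.61 CPM on HFD (SD, n = 3). The log2 fold change was 1.40 (standard error 0.27), and those of *Sult1a1*, a sulfotransferase, *Tsc22d3*, the leucine zipper protein GILZ, and *Hif3a* were 0.93, 0.74 and 1.88. *Dusp1*, a phosphatase of MAP kinases that is also an immediate early gene, was at -1.16 (standard error 0.22). None of the 18 had an adjusted p under 0.05, and the part of glucocorticoids in the metallothionein values was not tested.

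Markers of the cell types in the cut area were examined as lists, some of whose medians lay farther from 0 than that of the members, and none of the markers was at 0 in all samples. The 14 astrocyte markers summed to 5047, 6040 and 5005 CPM in NCD1 to NCD3 and to 6241, 5832 and 4934 CPM in HFD1 to HFD3, with *Aldoc* as the most abundant (log2 fold change 0.053) and a median of 0.0057. *Gfap*, the intermediate filament of reactive astrocytes, was at 217, 207 and 83.1 CPM in NCD1 to NCD3 and at 406, 328 and 198 CPM in HFD1 to HFD3, a log2 fold change of 0.88 (edgeR, adjusted p = 0.999). NCD3 was its lowest sample and NCD1 its highest in NCD, and the diets overlapped. The 13 markers of tanycytes and ependyma, cells that line the ventricle, had a median of 0.37 with 11 above 0. They summed to 411, 476 and 620 CPM in NCD1 to NCD3 and to 720, 422 and 712 CPM in HFD1 to HFD3, with *Rarres2* as the most abundant (0.26). At p under 0.05 were *Crym* at 0.89 and *Col23a1* at 0.91. The part of astrocytes and ventricular cells in the metallothionein difference was not tested.

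The 14 microglia and macrophage markers summed to 481, 499 and 398 CPM in NCD1 to NCD3. In HFD1 to HFD3 the sums were 521, 530 and 524 CPM. Of these markers 13 were tested, 8 above 0 and 5 below, with a median of 0.059. The complement genes *C1qb*, the most abundant, and *C1qa* passed p under 0.05 with log2 fold changes of 0.44 and 0.46. These cells are the usual source of *Cyba* and *Cybb*, and their part in the *Cyba* values was not tested. The 10 endothelial markers summed to between 200 and 238 CPM in all samples, and at p under 0.05 were *Ly6c1*, their most abundant gene, at 0.81 and *Cldn5* at -0.48. All 8 markers of pericytes and smooth muscle lay below 0, with *Vtn* as the most abundant (-0.067) and with *Acta2* (-0.83) and *Tagln* (-1.05) at p under 0.05. *Sod3* is known as a product of vascular smooth muscle. Their part in the *Sod3* values was not tested.

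The 13 oligodendrocyte markers had a median of -0.22, with *Mbp* as the most abundant (0.0028) and *Opalin* (-0.88) at p under 0.05. The 12 general neuron markers had a median of -0.052, with *Snap25* as the most abundant (-0.22). The 15 ARC neuron markers had 0.21, with *Cartpt* (0.75) and *Tac2* (0.60) at p under 0.05. Red blood cell genes, of which *Hba-a2* was the most abundant, summed to 782, 2489 and 1967 CPM in NCD1 to NCD3 and to 1687, 1156 and 824 CPM in HFD1 to HFD3. All 5 of them that were tested lay below 0, with a median of -0.50 and with *Hba-a2* at -0.61, and none passed p under 0.05. The sums were lowest in NCD1 and HFD3, which for *Mt1*, *Mt2* and *Mt3* were the lowest and the highest sample.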

How the data were processed

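RNA-seq of laser-captured ARC tissue was analysed, with 3 NCD and 3 HFD samples assigned by title. According to the methods, the authors aligned reads with HISAT2 and computed gene values with StringTie and RSEM, without stated versions, and the submitters' processing notes name the build mm10. The deposited table holds the authors' read count per gene, not normalized, and an FPKM value that the authors scaled to transcript length and mapped reads. The authors' log2 fold change, p-value and FDR columns in the deposited table were not used, and their group mean FPKM served only to check the groups. No column belonged to other samples.

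Identifiers were matched to GENCODE M21 (GRCm38), which held 22267 and lacked 55. Genes without a count in any sample numbered 4145. The deposited counts were filtered with filterByExpr (14188 genes), normalized with TMM and tested with edgeR's quasi-likelihood test, with diet as the one term and Benjamini-Hochberg adjustment over all genes tested. The study's own threshold, p under 0.05 and 1.5-fold, was applied beside an adjusted p under 0.05. CPM values are TMM-normalized. The common biological coefficient of variation was 0.244. Transcript lengths were those implied by the deposited counts and FPKM values. Counts were simulated with the means of all 14188 genes and with 200 genes changed between the diets. Every gene was given the common coefficient of variation, and no relation to transcript length was put in. In these counts, 94 of 100 genes changed by 2 on the log2 scale and 43 of 100 changed by 1 were called, with 8 others. These shares need not hold for single members, whose spread can differ. With 3 samples against 3, an exact permutation test cannot give a p under 0.1, so none is given. Floors of 3 counts cover counting error only.

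The members, the related lists, the marker lists and the tests were chosen with earlier results of these data known. Values per sample are given for the metallothioneins, for members with p under 0.05 and for the 2 members of each role with the highest mean FPKM, and *Sod3*, *Gsr*, *Srxn1*, *Txnrd1* and *Prdx6* were added after their values had been seen. From each related pathway list, up to 5 genes with p under 0.05 are named, or else that with the smallest p. From each cell type list, the genes with p under 0.05 and the most abundant gene are named. *Junb*, *Cdip1* and *Trmt112* were named as overlapping neighbours. A planned description of the proteins was replaced by one of coding sequences. The alternatives were RLE size factors, library totals, DESeq2's Wald test, other count filters, limma on log2(FPKM + 1) and log2(FPKM + 0.1), each sample left out, a replicate block, the log2 total count as a covariate, thinned counts and a length offset. Fits were run in edgeR 4.0.16, DESeq2 1.42.0 and limma 3.58.1 under R 4.3.3, and figures were drawn with matplotlib 3.10.9 under Python 3.11.15.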

Additional observations from a re-analysis of the deposited data

How the results depend on the processing

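None of the 35 members reached an adjusted p under 0.05 in any of the 20 other settings (smallest adjusted p 0.491). The number of members past p under 0.05 and 1.5-fold was 1, *Mt2*. It was 2 with the replicate block (*Mt1* and *Mt2*), 2 with thinned counts (*Mt2* and *Sod3*), and 0 with log2 total count as covariate, with the replicate block and log2 total count together, and without the deepest and the shallowest library. Leaving out each sample gave 0 to 2. The median of the members, 0.11, was 0.0016 with the replicate block and log2 total count and ran from -0.017 to 0.14 when each sample was left out, -0.017 being the value without NCD1. The causes were not tested.

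Over all genes, the 8 with an adjusted p under 0.05 became 19 with DESeq2, 15 for genes with at least 1 count, 5 with limma at either pseudocount, 17 with the replicate block, 15 with the log2 total count, 20 with both, 4 with the length offset, and 1 to 16 when each sample was left out. The 270 genes past the unadjusted threshold became 427 for genes with at least 1 count, 179 for a mean of at least 50 counts, and 195 to 982 when each sample was left out, the highest being without NCD3. The replicate numbers are not stated to pair samples, and the deviations of same-numbered samples correlated at -0.0116, 0.113 and 0.369. With the replicate block, 376 genes passed the unadjusted threshold.

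For 20 members followed through every setting, 363 of 400 values kept direction and 37 changed sign, 5 of them from values beyond 1 standard error. With log2 total count as covariate the log2 fold change was 0.013 for *Keap1*, 0.075 for *Gstm1*, -0.015 for *Mt3* and 0.05 for *Txnrd1*. With the replicate block and log2 total count it was -0.053 for *Txn2*, -0.27 for *Mt3*, -0.0035 for *Ucp2* and 0.079 for *Txnrd1*, and 0.25 for *Mt2* and 0.17 for *Mt1*, neither of which passed p under 0.05, where the block alone gave 0.83 and 0.60, both of which did. *Srxn1* was at 0.34 in the former fit and did not pass. With the length offset it was 0.013 for *Keap1* and -0.027 for *Txn2*, and with the block and length offset 0.016 and -0.028. *Sod1* was at 0.00018 with library totals and at 0.055 with limma at either pseudocount and with the replicate block. Without the deepest and the shallowest library it was 0.019 for *Keap1*, 0.071 for *Gstm1*, -0.13 for *Mt3*, 0.0044 for *Gsr* and 0.10 for *Txnrd1*. When each sample was left out, the range was -0.13 to 0.053 for *Keap1*, -0.19 to 0.11 for *Hmox2*, -0.017 to 0.37 for *Gpx4*, -0.19 to 0.12 for *Gstm1*, -0.28 to 0.24 for *Sod1*, -0.028 to 0.35 for *Prdx5*, -0.033 to 0.38 for *Txn1*, -0.038 to 0.14 for *Txn2*, -0.07 to 0.42 for *Mt3*, -0.022 to 0.30 for *Ucp2* and -0.50 to 0.017 for *Txnrd1*. The sign was kept in each of these 6 fits by *Mt1* (0.29 to 0.70), *Mt2* (0.46 to 0.96), *Sod2* (-0.36 to -0.12), *Sod3* (-0.63 to -0.28), *Srxn1* (0.29 to 0.48), *Prdx1* (0.016 without NCD1 to 0.23), *Prdx6* (0.011 without HFD1 to 0.36), *Cyba* (0.28 to 0.50) and *Gsr* (-0.53 to -0.14).

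*Hmox1*, *Sod3* and *Cybb* had few counts, which limits their precision. The diet and the mean depth of its libraries were not balanced, since the deepest library was from NCD and the shallowest from HFD.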
